A study of Mus musculus with 6 samples.

Results

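The unfolded protein response was followed across cultured mouse chondrocytes through 10 genes: Hspa5, Xbp1, Atf4, Ddit3, Atf3, Trib3, Herpud1, Dnajb9, Sdf2l1 and Creb3l2. They were chosen by gene symbol, as well-known regulators and targets of the response, from the 35976 genes of the count table, and all 10 had a row. The cells were chondrocytes, the cells that make cartilage matrix, from hind limb articular cartilage of day 18.5 embryos of a C57BL/6 x 129S4/SvJae cross. Both groups were expanded on plastic through 16 population doublings in medium with serum and ascorbate, and both received doxycycline at 2 µg/ml throughout to switch on a histone H3.3 transgene. In the H3K9M group (3 libraries, replicates 1, 3 and 5) the induced H3.3 had lysine 9 replaced by methionine (K9M), and the labels describe methylation at lysine 9 as suppressed. In the H3WT group (3 libraries, replicates 1, 2 and 4) it was wild-type H3.3. The labels used here do not name the promoter behind the transgene, do not say whether embryos were pooled, and do not state that replicates came from separate animals, so p-values measure the spread between these libraries only.

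The unfolded protein response adjusts the endoplasmic reticulum (ER) to its load of newly made secreted proteins. Sensors in the ER membrane start it. IRE1 splices the Xbp1 transcript, ATF6 is cut in the Golgi to release a transcription factor, and PERK phosphorylates eIF2α, which slows translation in general while ATF4 is translated more. XBP1 and ATF6 raise chaperone and protein-disposal genes, and ATF4 raises genes of amino acid supply and, with CHOP (encoded by Ddit3), genes of stress-linked cell death. Chondrocytes secrete large amounts of collagen and proteoglycan and lean on this machinery, including the chondrocyte factor CREB3L2. Gene counts do not separate spliced from unspliced Xbp1, and the transcript level of Atf4 is not a measure of its translation.

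The ER stress response is read from promoters through short elements, so the promoters of the 10 genes were searched, on both strands, in the 250 bases before the RefSeq start (GRCm38.p6, which is mm10). The elements were ERSE (CCAAT, 9 bases of any kind, CCACG), ERSE-II (ATTGG, 1 base, CCACG), the UPRE core (TGACGTGG) and the CARE core bound by ATF4 with C/EBP partners (TGATG, 1 base, AA). ERSE, ERSE-II and the reverse complement of the UPRE core share the letters CCACG. All 10 genes had a promoter window. Hspa5 held 1 ERSE, from 65 to 47 bases before the start. Herpud1 held 1 ERSE-II, from 52 to 42 bases before the start, and a CARE core on the strand opposite the gene from 112 to 105 bases before it. Atf3 held a CARE core, also on the strand opposite the gene, from 110 to 103 bases before its start. No match was found in the windows of the other 7 genes, which says only that these letters are not there. Of 32851 promoter windows of that length, 0.113% held an ERSE, 0.03% an ERSE-II, 0.563% a UPRE core and 3.45% a CARE core. The windows of Hspa5 (chr2:34771840-34772089, plus strand) and Herpud1 (chr8:94386179-94386428, plus strand) are shown because they carry the ERSE and the ERSE-II, with matched letters in capitals (the CARE core of Herpud1 appears as its reverse complement).
Hspa5: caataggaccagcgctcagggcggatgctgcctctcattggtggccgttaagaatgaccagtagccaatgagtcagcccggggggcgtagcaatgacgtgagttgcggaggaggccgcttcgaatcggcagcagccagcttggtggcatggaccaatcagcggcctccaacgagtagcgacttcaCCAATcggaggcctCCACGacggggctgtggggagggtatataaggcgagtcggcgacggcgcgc
Herpud1: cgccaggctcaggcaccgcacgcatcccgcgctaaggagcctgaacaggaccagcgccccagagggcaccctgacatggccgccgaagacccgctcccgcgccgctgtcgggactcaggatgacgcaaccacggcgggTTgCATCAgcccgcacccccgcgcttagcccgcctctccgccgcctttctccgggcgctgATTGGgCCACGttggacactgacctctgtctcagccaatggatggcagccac

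The ERSE of Hspa5 recurs in promoters of other ER genes. Of the 23 ER chaperone and folding genes listed for comparison, 17 had a window and 6 of these held an ERSE. Among 40 genes of ER entry and ER-associated degradation, 30 had a window and 2 held one. The matches are given to show which genes share the element with Hspa5, each read 5′ to 3′ on the strand where it was found, with the 2 fixed parts in capitals and the free bases in lower case.
Hspa5: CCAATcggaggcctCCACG
Hsp90b1 (upstream site): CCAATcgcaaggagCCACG
Hsp90b1 (downstream site): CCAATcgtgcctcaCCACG
Calr: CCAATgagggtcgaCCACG
Canx: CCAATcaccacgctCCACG
Pdia6: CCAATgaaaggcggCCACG
Dnajc3: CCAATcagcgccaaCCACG
Creld2: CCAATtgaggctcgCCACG
Syvn1: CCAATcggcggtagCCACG
Derl3: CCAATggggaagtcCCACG

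Total counts per library ran from 15113675 to 19606082. The low-count filter passed 13761 genes for testing, all 10 members among them. Libraries spread widely: the first principal component of log2 CPM held 35.5% of the variance, with scores of 51 for H3K9M replicate 3, 49.1 for H3WT replicate 2, -2.8 and 10.4 for H3K9M replicates 1 and 5, and -56.2 and -51.5 for H3WT replicates 1 and 4. On the second component H3K9M replicate 3 (39.8) and H3WT replicate 2 (-71.5) lay at opposite ends. All 10 chondrocyte markers had at least 10 counts in every library, with summed levels of 7320 to 11440 CPM in H3K9M and 7221 to 19050 CPM in H3WT. Col2a1, the main cartilage collagen, ran from 4971 to 8421 CPM and from 4913 to 14110 CPM, and Sox9, the cartilage transcription factor, from 114 to 181 CPM and from 145 to 285 CPM. All 8 fibroblast markers were also present, at 12370 to 30660 and 10120 to 34970 CPM. Of 7 skeletal muscle markers 2 had at least 10 counts in every library. The 7 summed to 164, 232 and 26.9 CPM in H3K9M replicates 1, 3 and 5 and 13.2 to 32 CPM in H3WT. Of 6 osteoblast markers 4 were that abundant (47.6 to 75.2 and 51.5 to 120.0 CPM). The 7 macrophage and blood markers summed to 3.84 to 16.5 CPM, with Ptprc, Adgre1 and Hbb-bs at 0 reads, and the 6 endothelial markers to 0.104 to 0.825 CPM, with Cdh5, Tie1 and Emcn at 0. In bulk RNA, fewer cells of a type and less RNA per cell cannot be told apart, here and in every result that follows.

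Levels of the members were compared with each other per kilobase of the longest GENCODE M21 transcript, as the mean over the 6 libraries. Hspa5 stood first at 235 CPM per kb (library range 145 to 270). Atf4 followed at 122 (81.7 to 147), and its range met that of Hspa5. Herpud1 (56.6, range 41.5 to 66.3) and Xbp1 (45.5, range 37.3 to 51.1) came next and overlapped each other, while both lay below every Atf4 value. Ddit3 (23.2, range 10.7 to 30.1), Creb3l2 (22.8, range 19.7 to 26.8), Trib3 (21, range 3.28 to 37.4), Sdf2l1 (16.5, range 13.4 to 21.7) and Dnajb9 (10.3, range 8.19 to 13.1) came next in that order. Ranges of neighbours among these 5 overlapped, except that every Sdf2l1 value lay above every Dnajb9 value. Atf3 was at 0.636 CPM per kb (0.208 to 1.07), below all others in each library. Since the longest transcript may not be the one expressed, distances between genes of like level are approximate.

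No difference between H3K9M and H3WT passed the test in any of the 10 genes. No member passed an adjusted p of 0.05 (edgeR quasi-likelihood test), against 0.0% of all tested genes, and none had an unadjusted p under 0.05, against 12.2% of all tested genes. DESeq2 and limma-voom called 0 of 10 as well, adjusted or unadjusted. The median log2 fold change of the members was 0.004, with 5 above and 5 below 0, and that of all tested genes was -0.003. The values of H3K9M and H3WT separated completely in 1 member, Sdf2l1, against 19.4% of all tested genes. In counts simulated at this spread the test recovered 32.5% of genes changed 2-fold, so a difference of that size in a single gene could be missed. That share is an average over randomly drawn genes, simulated without the patterns that libraries share. The SEs of the members' own log2 fold changes ran from 0.13 (Creb3l2) to 0.91 (Trib3).

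**Figure D1:**
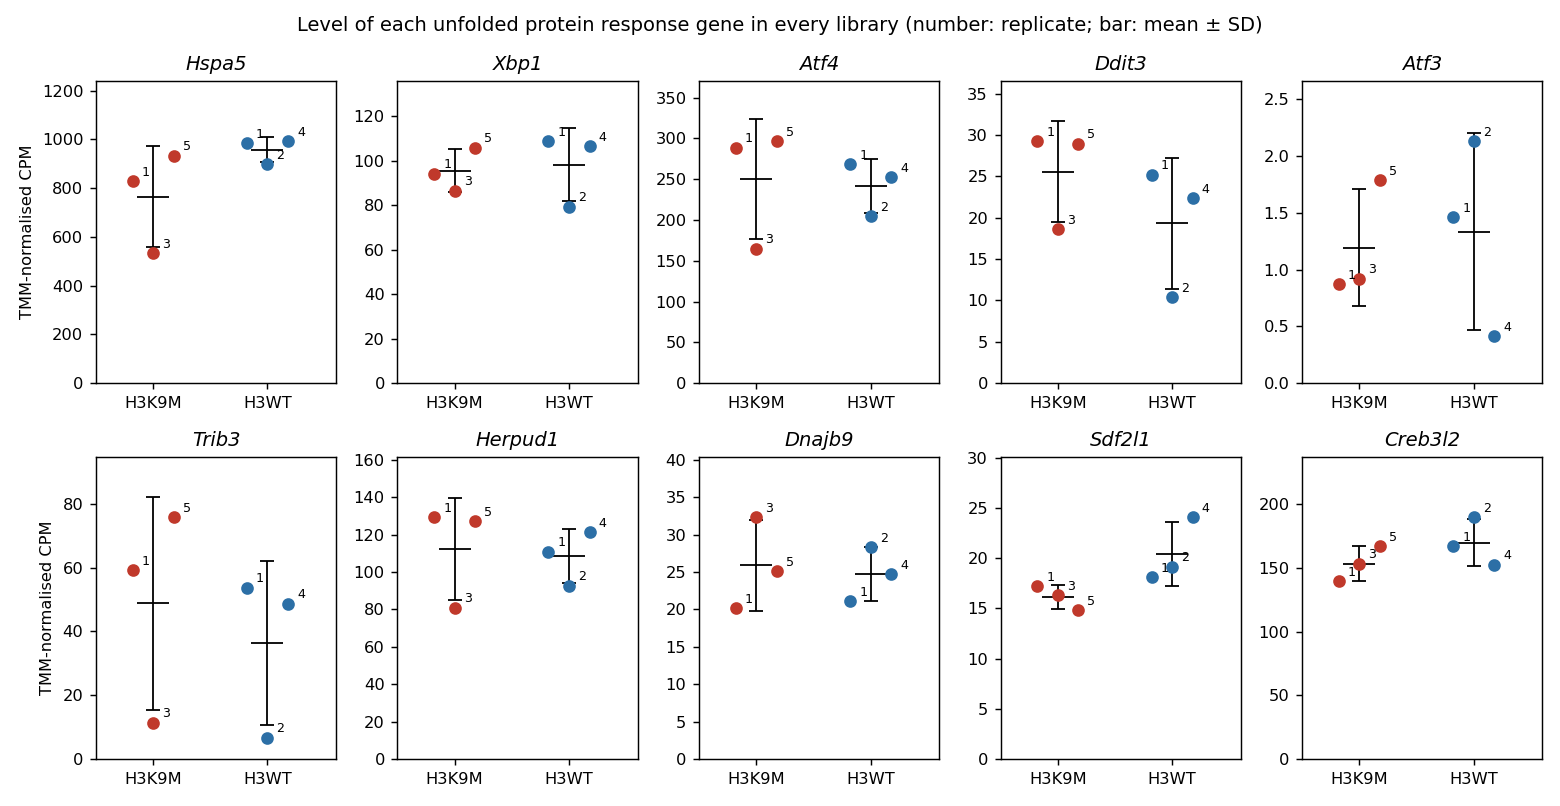
TMM-normalised CPM (vertical axes, each from 0) of the 10 unfolded protein response genes in the 3 H3K9M (red) and 3 H3WT (blue) libraries, with the replicate number beside each point and the mean ± SD in black. The groups overlap in every panel but that of Sdf2l1. H3K9M replicate 3 and H3WT replicate 2 are the lowest libraries of their groups for Hspa5, Xbp1, Atf4, Ddit3, Trib3 and Herpud1. For all of these but Hspa5 they are also the 2 lowest of all libraries.

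Among the ER-resident chaperones, Hspa5 encodes BiP, the HSP70 of the ER lumen that also holds the sensors inactive. In H3K9M it stood at 829 CPM (replicate 1), 532 CPM (replicate 3) and 933 CPM (replicate 5), and in H3WT at 985 CPM (replicate 1), 899 CPM (replicate 2) and 991 CPM (replicate 4). Values for the other members follow the same order. The H3K9M values overlapped those of H3WT only through replicate 5, and replicate 3 was far below all others. Means were 765 ± 208 and 958 ± 51.5 CPM (SD, n = 3 each), and the fitted log2 difference was -0.32 with an SE of 0.21 (adjusted p 0.558). It was -0.11 without H3K9M replicate 3, so the value rested largely on that library. Sdf2l1 encodes a partner of the ER co-chaperone ERdj3 that helps keep misfolded proteins soluble. Its values were 17.2, 16.3 and 14.8 CPM in H3K9M and 18.1, 19.2 and 24.1 CPM in H3WT, all 3 of the former below all 3 of the latter. The nearest values, 17.2 and 18.1 CPM, were close, and the difference did not pass (log2 fold change of -0.34 ± 0.20, SE; adjusted p 0.505). It kept its sign under all 16 alternative fits, between -0.48 and -0.21.

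Dnajb9 encodes ERdj4, a BiP co-chaperone that represses IRE1 and guides misfolded proteins to disposal. It was the member with the opposite pattern by library: 20.2, 32.3 and 25.1 CPM in H3K9M and 21.1, 28.3 and 24.7 CPM in H3WT, so that H3K9M replicate 3 and H3WT replicate 2 were highest. Its log2 fold change was 0.07 ± 0.22 (SE; adjusted p 0.933). A pseudogene copy, Gm6568, shares 93.1% identity over 697 bases with the Dnajb9 transcript but held between 0 and 3 reads, against 301 to 669 for Dnajb9. Herpud1 encodes the HERP protein of the ER-associated degradation complex. It had 129, 81 and 127 CPM in H3K9M and 111, 92.8 and 121 CPM in H3WT, with the H3K9M libraries on both sides of the H3WT range. The fitted log2 fold change was 0.05 ± 0.20 (SE; adjusted p 0.943).

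Among the transcription factors, Xbp1, the target of IRE1 splicing, had 94.2, 86.6 and 106 CPM in H3K9M and 109, 79.3 and 107 CPM in H3WT. The groups overlapped throughout (log2 fold change of -0.04 ± 0.16, SE; adjusted p 0.948). Atf4 had 289, 165 and 296 CPM in H3K9M and 269, 204.5 and 252.5 CPM in H3WT. The highest and the lowest value both came from H3K9M, and the groups' difference took up 0.0192% of the variance of its log2 CPM between libraries, where the median over all tested genes was 20.2%. Its log2 fold change was 0.05 ± 0.23 (SE; adjusted p 0.959). Ddit3, the gene of the death-linked factor CHOP and a target of ATF4, had 29.2, 18.6 and 28.9 CPM in H3K9M and 25.2, 10.4 and 22.3 CPM in H3WT. H3K9M replicates 1 and 5 lay above all H3WT libraries and replicate 3 lay within them (log2 fold change of 0.41 ± 0.34, SE; adjusted p 0.678). Ddit3 stayed above 0 in all 16 alternative fits but was 0.12 without H3WT replicate 2 and 0.07 with a joint offset for length and GC content of the transcript. Exons of Ddit3 overlap Mars and Gm4189 on the opposite strand, and the strand setting of the counting is not given in the sources used here, so its reads and those of Mars cannot be separated where they overlap. Mars had a log2 fold change of 0.12.

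Atf3, a stress-induced repressor downstream of ATF4, was close to silent, with 13, 19 and 35 reads in H3K9M and 26, 41 and 7 reads in H3WT. At that depth the log2 fold change of -0.16 had an SE of 0.84 (adjusted p 0.962), and no difference was detectable. Creb3l2 encodes BBF2H7, an ATF6-like factor cut from the ER membrane that supports collagen secretion in growing cartilage. It had 139.5, 153 and 167 CPM in H3K9M and 167, 189.8 and 153 CPM in H3WT, among the steadiest of the members, with the highest library 1.36-fold above the lowest. Its log2 fold change was -0.15 ± 0.13 (SE; adjusted p 0.692).

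Trib3, a pseudokinase induced by ATF4 and CHOP that feeds back on both, varied most. It had 59.3, 11.4 and 75.9 CPM in H3K9M and 53.7, 6.64 and 48.7 CPM in H3WT. Each group thus held 1 library far below its other 2, and the highest library exceeded the lowest 11.4-fold. Among 4844 tested genes of like level (mean CPM within 2-fold), 0.97% had a larger ratio. The groups' difference was small beside this spread (log2 fold change of 0.43 ± 0.91, SE; adjusted p 0.895) and took up 3.79% of the variance. It ran from -0.06 without H3WT replicate 2 to 0.91 without H3K9M replicate 3. Without both of these libraries, a fit chosen after the data were seen, the log2 fold change was 0.41 with an unadjusted p of 0.0396 and an adjusted p of 0.244, and 302 genes passed the threshold in that fit, none of them a member.

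**Figure D2:**
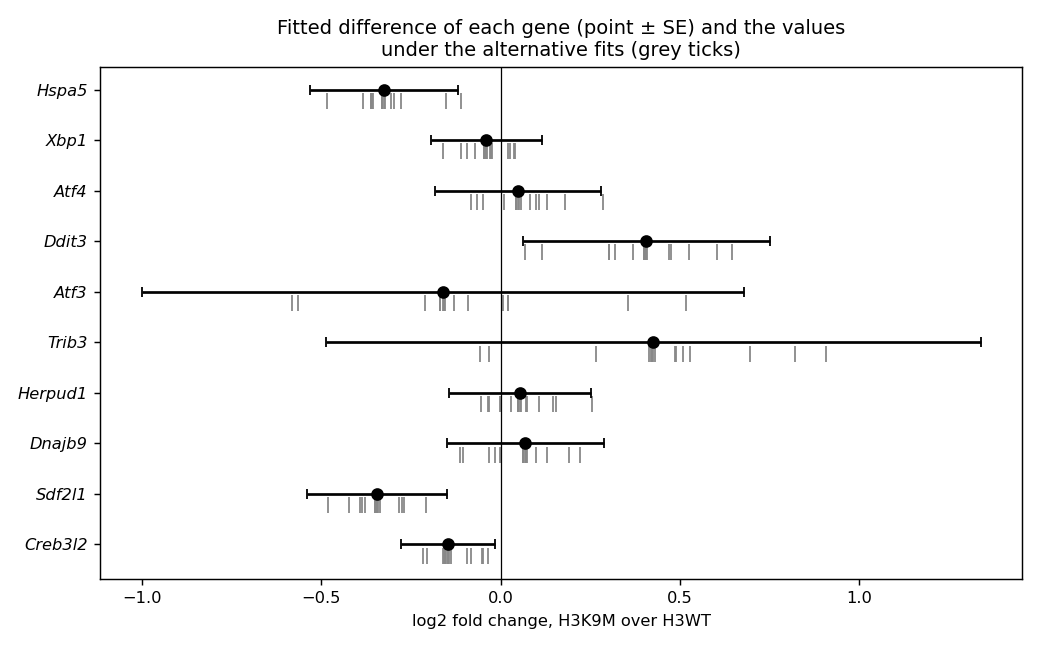
Log2 fold change of H3K9M over H3WT for each member (horizontal axis; point and bar, fitted value ± SE over 6 libraries), with the values under the alternative fits as grey ticks below it. The bars of Trib3 and Atf3 are the widest, and the ticks of Hspa5, Ddit3, Sdf2l1 and Creb3l2 stay on 1 side of 0.

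Libraries of 1 group differed from each other in an order that several members shared. In 5 of the 10 (Xbp1, Atf4, Ddit3, Trib3 and Herpud1) the 2 lowest libraries of the 6 were H3K9M replicate 3 and H3WT replicate 2, the pair with the highest scores on the first principal component and the farthest apart on the second. This order was noticed in the data and was seen in 10.5% of all tested genes. The ratio of Trib3 to Atf4 CPM was 0.205, 0.0689 and 0.256 in H3K9M and 0.2, 0.0325 and 0.193 in H3WT, so that Trib3 was low in that pair beyond what Atf4 was. The ratio of Ddit3 to Atf4 was 0.0507 in H3WT replicate 2 and 0.0884 to 0.113 in the other 5 libraries. The ratio of Hspa5 to Hsp90b1, the ER form of HSP90, stayed between 0.68 and 0.797. Its lowest value was that of H3K9M replicate 3.

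Targets of the ATF4 arm showed the same order by library. In the list of 36 such genes (amino acid synthesis and transport, aminoacyl-tRNA synthetases, feedback and death genes), 25 had H3K9M replicate 3 and H3WT replicate 2 as their 2 lowest libraries. Relative to each gene's mean, the list's median log2 CPM was -0.54 and -0.48 in that pair, and 0.39, 0.31, 0.28 and 0.15 in H3K9M replicates 1 and 5 and H3WT replicates 1 and 4. Cth, which makes cysteine from cystathionine, had 30 and 17 reads in the pair and 209 to 343 reads in the other libraries. Asns, the asparagine synthetase, had 146 and 104 CPM in the pair and 241 to 330.4 CPM elsewhere. Both genes were named after their values were seen. The 10 list members with a CARE core had medians of -0.745 and -0.83 in the pair, and the 20 with a window and no CARE core had -0.55 and -0.43. Over all 15 tested genes of the members and lists with a CARE core, the medians in the pair were -0.507 and -0.501. The difference between these subsets was not tested. The order was not confined to the ATF4 arm. The pair was also lowest in 8 of 23 ER chaperone genes and 12 of 40 genes of ER entry and ER-associated degradation. It was lowest in 2 of 13 sensors and related factors, 1 of 13 COPII coat genes and 0 of 19 heat shock genes. Over all tested genes the pair was lowest in 10.5%. Collagen genes of type I had the same 2 lowest libraries, with Col1a1 at 4962 and 3685 CPM in the pair and 11720 to 18930 CPM in the other 4. Of the 8 fibroblast markers 5 had the same 2 lowest libraries (Col1a1, Col1a2, Col3a1, Thy1 and Postn), and their collagens made up most of the list's sum. Pdgfra (236 and 243 CPM in the pair, 89.6 to 182 CPM elsewhere) and Dcn (177 and 143 CPM, against 41.1 to 78.9 CPM) were highest in the pair, and S100a4 did not follow it. The skeletal muscle markers did not follow the pair (232 and 13.2 CPM). The part of cell composition in the order of the ATF4 targets was not tested.

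**Figure D3:**
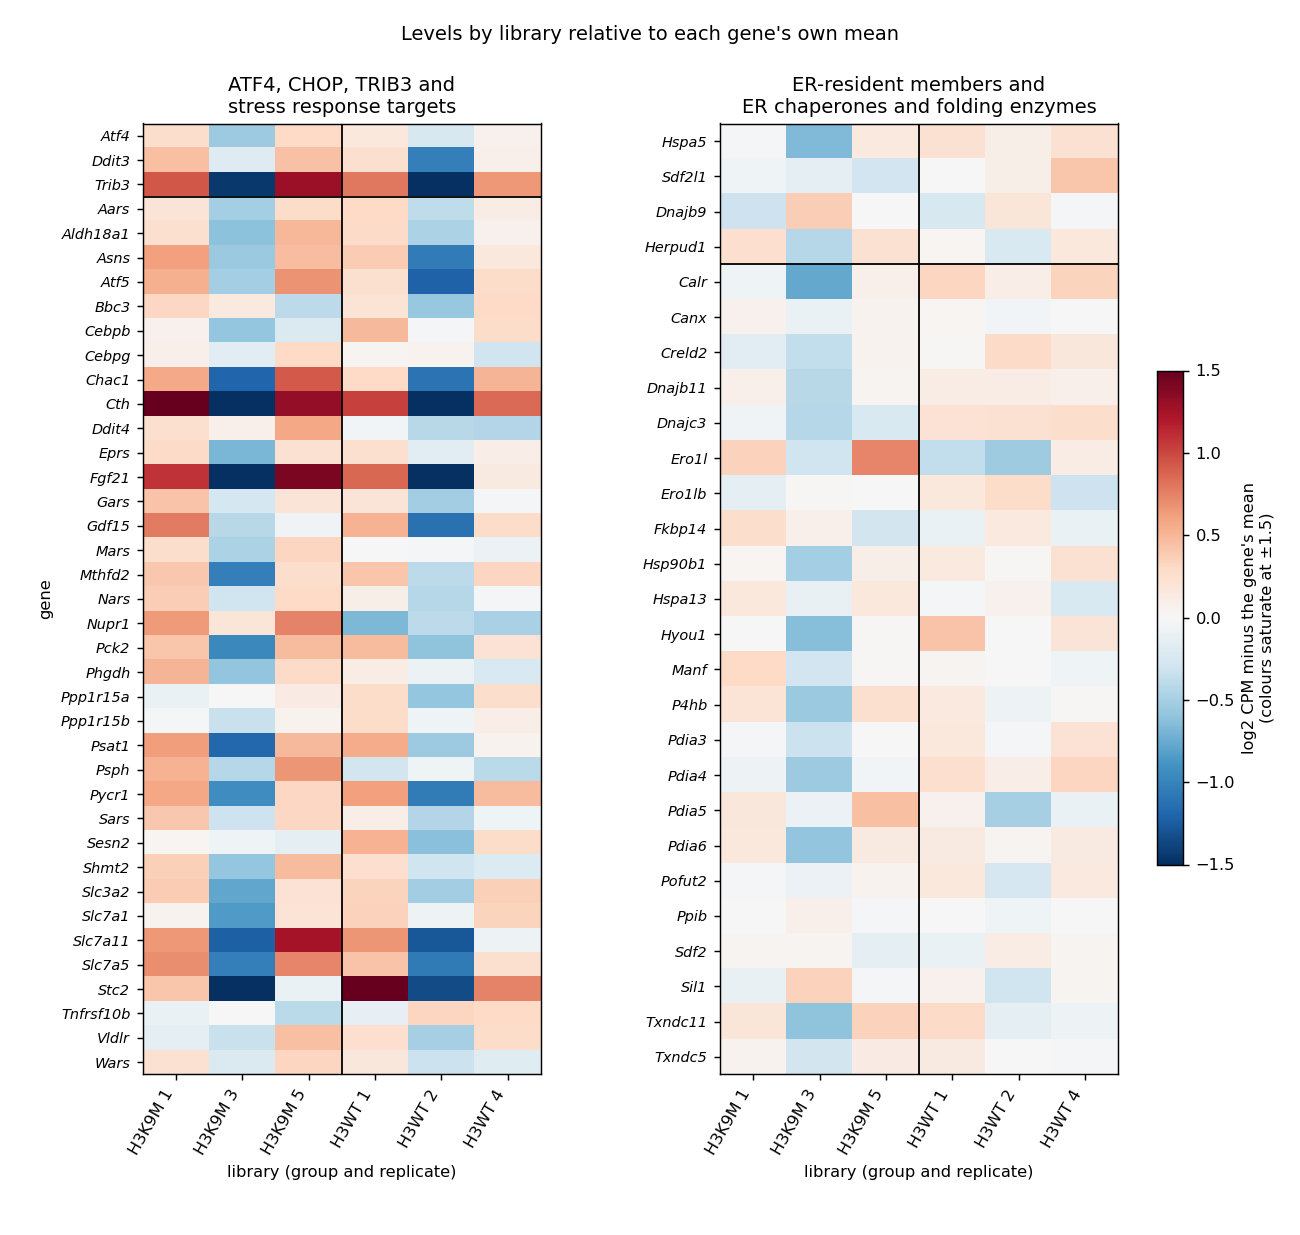
Log2 CPM minus the gene's own mean (colour, saturating at ±1.5) for the ATF4-arm members and targets (left) and the ER-resident members and ER chaperones (right), genes in rows and the 6 libraries in columns; horizontal lines divide members from list genes and vertical lines divide H3K9M from H3WT. Most rows on the left are blue in H3K9M replicate 3 and H3WT replicate 2, and many on the right are blue in H3K9M replicate 3 only.

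Between the groups, the 36 ATF4-arm targets were at a median log2 fold change of 0.13, with 23 above and 13 below 0 and none past the adjusted threshold. The median was -0.06 without H3WT replicate 2 and 0.38 without H3K9M replicate 3. At an unadjusted p under 0.05, 2 were higher (6.42% of all tested genes were) and 1 was lower (5.77%). Nupr1, a small stress-induced chromatin protein, had the smallest p-value of the list. It had 232, 170 and 250.5 CPM in H3K9M and 93.5, 114 and 106 CPM in H3WT, with no overlap. The 2.08-fold difference (log2 fold change 1.06, SE 0.17) had an adjusted p of 0.17. It passed with DESeq2 (adjusted p 4.68e-05), with no filter beyond 1 read in any library (0.0108) and without H3K9M replicate 3 and H3WT replicate 2 (0.00893). Ddit4, an inhibitor of mTORC1 signalling, stood at 42.9 ± 7.7 against 28.2 ± 4.53 CPM (log2 fold change 0.60, adjusted p 0.28). Cebpb, a bZIP partner of ATF4, stood at 100.4 ± 22.1 against 140.5 ± 24.2 CPM (-0.49, adjusted p 0.38). For Nupr1 and Ddit4, H3K9M replicate 3 was the lowest of its group, as for Trib3, but lay above every H3WT library. H3WT replicate 2 was the highest of its group for Nupr1. For Ddit4 it had 25.7 CPM, level with the lowest (25.5 CPM in H3WT replicate 4).

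ER chaperones and folding enzymes, the family to which Hspa5 belongs, were at a median log2 fold change of -0.05 over 23 genes, with 15 below 0 and 8 above. With library size alone as the scaling the median was 0.02, while that of all tested genes was 0.05. None passed the adjusted threshold, and 2 of 23 were lower at an unadjusted p under 0.05, against 5.77% of all tested genes. Dnajc3, the BiP co-chaperone p58IPK, had 168.5, 129.6 and 149 CPM in H3K9M and 203, 205 and 209 CPM in H3WT. These did not overlap, and the H3WT libraries lay close together (log2 fold change of -0.46 ± 0.13, SE; adjusted p 0.246). Pdia4, a disulfide isomerase, had 312, 225.5 and 318 CPM against 389, 350.2 and 408 CPM (-0.43, SE 0.16, adjusted p 0.353). Creld2, a secreted ER stress protein, had 54.5 ± 7.93 against 67.9 ± 6.37 CPM (-0.32, adjusted p 0.444). Calr, encoding calreticulin and named after its values were seen, had 1414, 866.5 and 1548 CPM against 1835, 1584 and 1854 CPM (-0.46, SE 0.22, adjusted p 0.446), and -0.24 without H3K9M replicate 3.

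The 9 tested genes of the members and lists with an ERSE, the sequences shown above, gave 8 fold changes below 0, with a median of -0.32. Of all tested genes 50.4% were below 0, and of the 23 chaperone genes, which supplied 6 of the 9, 15 were. Derl3, 1 of the 8, had 0 to 26 reads per library (log2 fold change of -0.96 ± 1.42, SE). In 8 of the 9, H3K9M replicate 3 was the lowest library, as it was in 14 of all 23 chaperone genes and in 20.0% of all tested genes. Without that library 7 of the 9 were below 0 and the median was -0.21. Within the chaperone list, the 6 with an ERSE had a median of -0.28, and the 11 with a window and no ERSE -0.04. No test was run on these subsets, and only Dnajc3 and Syvn1 had an unadjusted p under 0.05. Syvn1, the degradation ligase HRD1, had 50.9 ± 6.38 against 65.9 ± 6.19 CPM (log2 fold change of -0.37 ± 0.15, SE; adjusted p 0.369).

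The 3 sensors Ern1, Eif2ak3 and Atf6, upstream of the members, were all expressed, and none of the 3 passed the test. Ern1 (IRE1) had a log2 fold change of 0.19 (26.1 ± 7.12 against 22.9 ± 6.26 CPM, adjusted p 0.823). Eif2ak3 (PERK) had 0.18 (58 ± 5.6 against 51.3 ± 7.09 CPM, adjusted p 0.675), and Atf6 had -0.05 (90.6 ± 5.22 against 93.8 ± 4.95 CPM, adjusted p 0.902). The sign of Ern1 turned without H3K9M replicate 3 and that of Atf6 with library size alone as the scaling. Of the list of 15 sensors, processing proteases and related kinases and factors, 13 were tested, with a median of -0.18, 9 below 0 and 0 past the adjusted threshold. Ern2, the other IRE1 gene, with 0 reads in every library, and Creb3l3, with 0 to 8 reads, were not tested. The smallest p-values belonged to Creb3l4, an ATF6-like factor with 7 to 16 reads in H3K9M and 36 to 45 in H3WT (log2 fold change of -1.73 ± 0.71, SE; adjusted p 0.391), Eif2ak2, the double-stranded RNA kinase PKR (-0.38, adjusted p 0.42), and Mbtps1, the site-1 protease that cuts ATF6 and CREB3L2 (-0.25, adjusted p 0.451). With Eif2ak1, these made up the 4 of 13 in which every H3K9M library lay below every H3WT library, against 8.68% of all tested genes.

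Genes of the COPII coat, which carries collagen out of the ER, were examined as the route served by CREB3L2. Of 14, 13 were tested, with a median of 0.09 and none past the adjusted threshold. Sec23a, the coat subunit gene known as a CREB3L2 target, had a log2 fold change of 0.12 (184 ± 18.1 against 170 ± 3.17 CPM, adjusted p 0.738), beside -0.15 for Creb3l2. Sec24b had -0.38 (93.7 ± 2.76 against 122 ± 11.2 CPM, adjusted p 0.275), Sec13 had 0.35 (176 ± 23.6 against 138 ± 9.67 CPM, adjusted p 0.364) and Mia3, which loads procollagen into the coat, -0.22 (176 ± 22.7 against 205 ± 5.88 CPM, adjusted p 0.523). These were the only 3 of the 13 whose groups did not overlap (19.4% of all tested genes), Sec13 with higher and Sec24b and Mia3 with lower values in H3K9M.

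Genes of ER entry and ER-associated degradation, the pathway of Herpud1 and Dnajb9, had a median log2 fold change of 0.03 over 40 genes. None passed the adjusted threshold. At an unadjusted p under 0.05, 7 were higher and 1, Syvn1, was lower, where 6.42% and 5.77% of all tested genes were. The smallest p-values were those of Ssr4, a translocon-associated subunit (123 ± 19.7 against 85.2 ± 4.97 CPM, log2 fold change 0.53, adjusted p 0.239), Sec61g, the small translocon subunit (46.7 ± 10.3 against 27.5 ± 3.98 CPM, 0.76, adjusted p 0.239), and Srp19 of the signal recognition particle (40.5 ± 2.3 against 29.5 ± 4.2 CPM, 0.46, adjusted p 0.319). Short transcripts as a class had higher values in H3K9M. The 760 tested genes with a longest transcript under 1000 bases had a median log2 fold change of 0.29. It was 0.139 for 1000 to 2000 bases, 0.01 for 2000 to 4000 bases and -0.09 for the 4951 genes over 4000 bases. By their longest transcripts, of 2568, 1862 and 3295 bases, Ssr4, Sec61g and Srp19 were not in the shortest class. The longest transcript may not be the one expressed, so neither these classes nor a length offset settles the part of length in these genes. Under the joint length and GC offset, 4 of 39 genes of the list were higher and 1 was lower at an unadjusted p under 0.05, against 4.82% and 4.3% of all genes in that fit. Log2 fold changes there were 0.51 for Ssr4 (adjusted p 0.345), 0.57 for Sec61g (adjusted p 0.486) and 0.35 for Srp19 (adjusted p 0.548). Sdf2l1, with a longest transcript of 1108 bases, had -0.48 under that offset (unadjusted p 0.0377, adjusted p 0.524), and Ddit3, with 969 bases, 0.07.

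**Figure D4:**
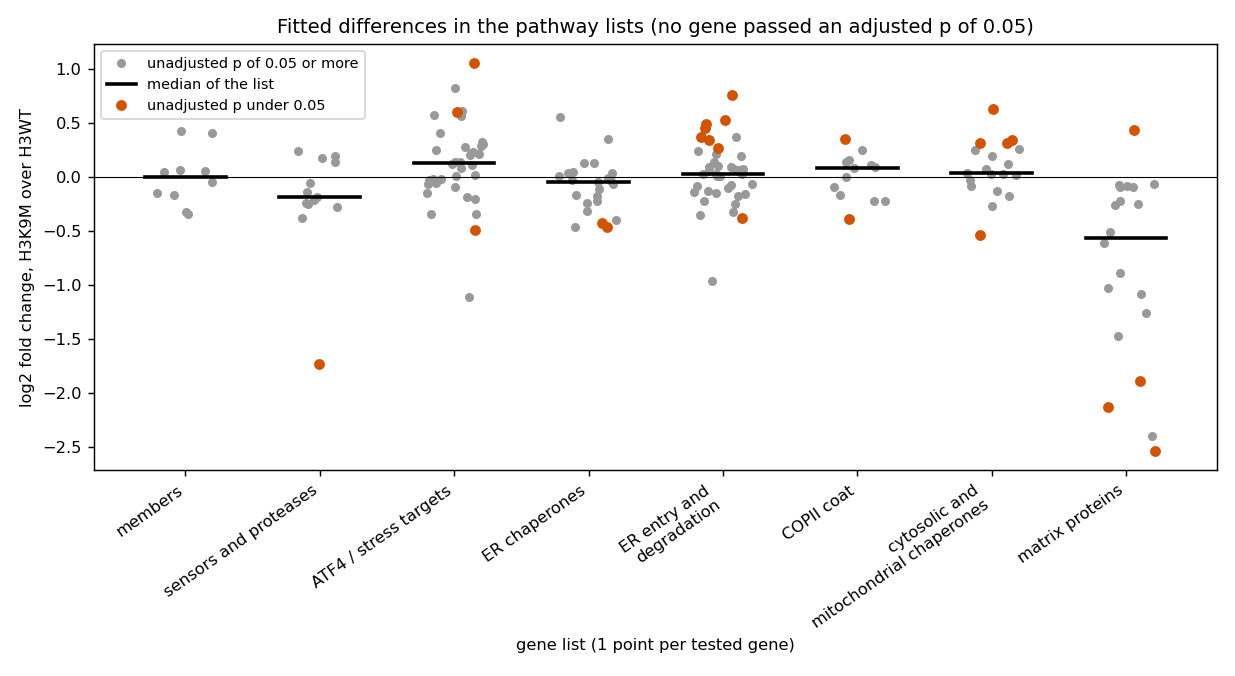
Log2 fold change of H3K9M over H3WT (vertical axis) for each tested gene of the 8 lists (horizontal axis), orange where the unadjusted p was under 0.05, with the list's median as a black bar. The members sit between -0.34 and 0.43 with no orange point, and the matrix proteins reach lowest, to -2.54.

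Matrix proteins that pass through the ER and chaperones outside it were set beside the members. The 20 matrix genes were at a median log2 fold change of -0.56, with 19 below 0 and none past the adjusted threshold. By library the median relative to each gene's mean was 1.17 in H3WT replicate 2 and between -0.60 and 0.35 in the other 5. Of the 20 genes, 12 were highest in H3WT replicate 2. The median in H3WT replicate 1 (-0.39) lay below those in H3K9M replicates 1 (-0.18) and 5 (0.04). This median counts each gene alike, whatever its level. Col1a1 went the other way, at 3685 CPM in H3WT replicate 2 and 18930 and 11720 CPM in H3WT replicates 1 and 4. It was 1 of 6 genes of the list, with Col1a2, Col3a1, Col5a1, Col5a2 and Sparc, that had H3WT replicate 2 among their 2 lowest libraries together with H3K9M replicate 3. Hspa5 at 899 CPM in H3WT replicate 2 was the lowest of the H3WT libraries. A link between matrix transcripts and Hspa5 was not tested. Matn4, a matrilin, (1.38 ± 0.624 against 8.01 ± 6.29 CPM, log2 fold change -2.54, adjusted p 0.244), Col9a2 (-2.13, adjusted p 0.357) and Fn1, encoding fibronectin, (0.44, adjusted p 0.382) had the smallest p-values. Matn4 passed with DESeq2 (adjusted p 0.0139). The 19 heat shock genes of the cytosol and mitochondria had a median of 0.04 and none past the threshold. At an unadjusted p under 0.05, 4 were higher and 1 was lower, where 6.42% and 5.77% of all tested genes were. Under the joint length and GC offset 1 was higher and 1 lower, against 4.82% and 4.3% of all genes in that fit. Hspe1, the mitochondrial HSP10 gene (94 ± 12.4 against 60.6 ± 6.66 CPM, 0.63, adjusted p 0.208), passed with DESeq2 (0.0457), and Cryab (0.35, adjusted p 0.302) and Hsph1 (-0.53, adjusted p 0.324) did not. The longest transcripts of Hspe1 and Cryab are short (964 and 1117 bases), and under the joint length and GC offset their values were 0.30 (adjusted p 0.567) and 0.17 (adjusted p 0.708).

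The other tested genes were ranked by the likeness of their pattern over the 6 libraries to that of Hspa5 or Trib3, as the root mean square difference of centred log2 CPM. Nearest to Hspa5 were Magi3 (0.051), Bmp2k (0.061), Hnrnph1 and Tmem109 (0.069 each) and BC005537 (0.072), none of them in a list. The nearest member was Atf4, at rank 531 of 13760 genes (0.208), followed by Herpud1 at rank 653 (0.218). Nearest to Trib3 were Adtrp (0.207), Gm36569 (0.305), Fgf21 (0.319), an ATF4 target with 0 reads in H3K9M replicate 3 and H3WT replicate 2, Slc7a3 (0.321) and Rph3al (0.354). Adtrp, Gm36569 and Rph3al also had 0 reads in at least 1 library. Ddit3 was the nearest member to Trib3, at rank 253 (0.868). With 6 libraries, many genes lie close to any pattern.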

How the data were processed

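Polyadenylated RNA was sequenced, and the authors deposited a table of unnormalised read counts, with genes in rows and 6 libraries in columns. Per the submitters' processing notes, HISAT2, featureCounts, DESeq2 and the build mm10 were used; versions, annotation and strand setting are not given in the sources used here. The test was that of edgeR 4.0.16 under R 4.3.3 (filterByExpr, TMM, robust glmQLFit, glmQLFTest; genotype as the only term; Benjamini-Hochberg over 13761 genes; threshold 0.05). CPM are TMM-normalised, SDs are over 3 libraries, and log2 CPM uses a prior count of 2. An exact permutation test of 3 against 3 cannot go below p = 0.1 and was not run. Alternatives used DESeq2 1.42.0, limma 3.58.1, other scalings and filters, offsets for GC content and length (span 0.5) and left-out libraries. Similar transcripts were found with blastn 2.17.0 (at least 90% identity over 200 bases). The computations were tested on simulated data with 200 genes changed in each of 3 simulations.

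The members and the lists were chosen with earlier results of these data known. The rule for naming genes took all members, the 3 smallest p-values of each list, the 3 sensors, Col2a1, Sox9 and the 5 genes nearest in pattern to Hspa5 and Trib3. Sec23a was added as a known target. Asns, Cth, Calr, Syvn1, Derl3, Eif2ak1, Col1a1 and the other fibroblast markers were added after their values were seen. No columns outside the series were present, and every row carried a gene symbol.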

Additional observations from a re-analysis of the deposited data

How the results depend on the processing

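Over 16 alternative fits no member passed an adjusted p of 0.05, and 136 of 159 member values kept their sign. Of the 2 fits chosen after the data were seen, the length and GC content offset and the fit without both H3K9M replicate 3 and H3WT replicate 2 each gave 1 member with an unadjusted p under 0.05 (Sdf2l1 and Trib3). Genes past the threshold numbered 367 with DESeq2, 36 with every gene that had a count, 302 without both libraries, 0 to 91 when 1 library was left out (91 without H3WT replicate 2, 2 without H3K9M replicate 3) and 0 otherwise, also at an adjusted p under 0.01. Signs turned with library size alone for Xbp1 (0.021) and Atf6 (0.006), with limma-voom for Atf3 (0.019), and with the GC content offset for Dnajb9 (-0.015). They turned with the length and GC content offset for Herpud1 (-0.001), Dnajb9 (-0.106) and Atf6 (0.023), and without both libraries for Atf3 (0.52), Dnajb9 (-0.001), Ern1 (-0.155) and Atf6 (0.016). With 1 library left out, values ran from -0.162 to 0.039 for Xbp1, -0.083 to 0.285 for Atf4, -0.58 to 0.36 for Atf3, -0.059 to 0.908 for Trib3, -0.056 to 0.254 for Herpud1, -0.11 to 0.22 for Dnajb9, -0.04 to 0.44 for Ern1, -0.085 to 0.005 for Atf6 and -0.006 to 0.60 for Asns. The median of the sensors was -0.13 with library size alone, -0.11 with the length and GC content offset, -0.13 without both libraries and -0.24 to -0.12 with 1 library left out. That of the heat shock genes was 0.18 without both libraries and -0.021 to 0.155 with 1 left out, and that of the COPII genes -0.045 to 0.114. The cause was not tested for any of these. No paired analysis was possible because the groups share only 1 replicate number. Atf3 had too few reads for the filter of at least 10 counts in every library.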
